A study of Mus musculus with 32 samples.

Results

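The genes described are those of the respiratory chain and the ATP synthase, encoded in the nucleus and in mitochondrial DNA, in mouse embryonic stem cells and in the retinal organoids grown from them. Members were chosen by name: Nduf genes of the A, B, C, S and V series, Sdha to Sdhd, Uqcr genes, Cox4 to Cox8 genes with a letter, Atp5 genes, and the mitochondrial mRNAs for Nd, Co, Cytb and Atp subunits. Names ending in -ps, of which 13 matched, were left out. This gave 100 of the 55492 rows of the deposited table, 87 nuclear and 13 mitochondrial. Of the nuclear rows 83 passed the filter of at least 1 FPKM in at least 2 libraries, and all 13 mitochondrial rows did. The 4 that did not were Ndufa11b, Cox6a2, Cox8b and a second row named Atp5o. The annotation gives Ndufa11b, and Ndufs6b, Ndufb4c and Cox6c2 among the tested rows, as processed pseudogenes. Counts of nuclear subunit genes below include those that were tested. Subunits with other names, such as Cox4i1 and Cox4i2, fall outside the rule.

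The study measured polyA RNA by paired-end sequencing in 32 libraries, 2 in each of 16 groups, in a study of METTL3, an enzyme that places m6A on RNA, in retinal development. The first line, WT, is the Rx:GFP mouse embryonic stem cell line, and the second is a Mettl3 knockout, called the libraries labelled KO here. The third line carries overexpressed wild-type METTL3-GRBD in the Mettl3 knockout, and is called the fusion line; it was kept without Dex or with Dex at 10 µM. Each was sampled at day 0 as embryonic stem cells and at days 2, 4 and 6 as organoids. The labels give AGN, at 0.1 µM, for the organoids of every line and not for the day 0 cells, so day 6 and day 0 also differ in AGN, and its part cannot be told apart from that of time. Both fusion groups share the knockout background and the fusion. Below they are counted apart, so counts over 4 lines hold the fusion line under both conditions and not 4 independent lines. The protocol gives Dex over days 2, 4 or 6, while the labels also call the day 0 samples of the Dex group treated, so what those day 0 cells received is unclear. The labels do not say whether the lines are single clones. They describe 2 independent rounds of library preparation for the duplicates and do not say that these came from separate cultures, so the p-values measure the spread between libraries, which may be technical.

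Mettl3 mRNA in the libraries labelled KO was no lower than in WT: its group means were 33.5 to 40.7 FPKM in WT, 36.6 to 43.4 in those labelled KO, 48.5 to 70.2 in the fusion line without Dex and 46.6 to 75.0 with Dex. A value for the whole gene does not show whether a part of it is missing, so it does not check the label, and every direction below that involves these libraries rests on the label. The pluripotency genes summed to 1947 to 2197 FPKM in the day 0 libraries and to 196 to 273 at day 6, while the eye field genes summed to 4.62 to 12.1 on day 0 and to 117 to 681 on day 6. Estimated depth was 27.7 to 53.5 M fragments a library.

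The respiratory chain moves electrons from NADH and succinate to oxygen through complexes I to IV, and the ATP synthase, complex V, uses the proton gradient they build. Mitochondrial DNA encodes core membrane subunits of complexes I, III, IV and V, and nuclear genes encode all of complex II and the other subunits, so both genomes supply the same machines. Pluripotent cells rely heavily on glycolysis, and several subunits exist as isoforms of separate genes that are restricted to certain tissues or are induced when oxygen is low.

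Promoters from 250 bases before to 50 bases after the start (RefSeq, GRCm38.p6) were matched for 68 distinct nuclear genes; 18 member rows had no entry. The letters GCGCA and GCGC with any base between them, bound by NRF1, a known activator of respiratory genes, stood on either strand in 16 of the 68 (23.5%), against 4.78% of the 27025 genes in the promoter table. CCGGAAG, the core bound by ETS factors such as GABPA, stood in 16 (23.5%, against 9.12%), AAGATGGCG, bound by YY1, in 6 (8.82%, against 1.49%), and TCAAGGTCA, bound by estrogen-related receptors, in 2 (2.94%, against 0.407%). Member windows used the start nearest the annotated gene start, while the 27025 genes used the first start listed for each. The 27025 genes were not limited to expressed genes, so the shares are not like for like. A match describes letters and is not a bound site. The promoters of the 3 genes for subunit c of the ATP synthase and of the Cox7a pair are shown because these genes for the same or a related protein had different courses in the data. Capitals mark matches to the 4 motifs.
Atp5g1, minus strand, chr11:96075582-96075881: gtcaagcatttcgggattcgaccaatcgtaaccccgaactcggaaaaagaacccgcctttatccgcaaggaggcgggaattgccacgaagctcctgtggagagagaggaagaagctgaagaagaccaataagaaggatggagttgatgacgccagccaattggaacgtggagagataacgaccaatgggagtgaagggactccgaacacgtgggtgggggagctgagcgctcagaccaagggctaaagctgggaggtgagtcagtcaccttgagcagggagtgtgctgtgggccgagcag
Atp5g2, minus strand, chr15:102670998-102671297: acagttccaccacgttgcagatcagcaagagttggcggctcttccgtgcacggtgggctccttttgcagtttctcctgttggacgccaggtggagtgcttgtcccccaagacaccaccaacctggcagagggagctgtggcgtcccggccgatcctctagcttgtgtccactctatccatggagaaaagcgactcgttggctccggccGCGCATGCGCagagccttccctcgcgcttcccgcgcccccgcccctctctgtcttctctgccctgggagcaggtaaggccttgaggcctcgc
Atp5g3, minus strand, chr2:73911277-73911576: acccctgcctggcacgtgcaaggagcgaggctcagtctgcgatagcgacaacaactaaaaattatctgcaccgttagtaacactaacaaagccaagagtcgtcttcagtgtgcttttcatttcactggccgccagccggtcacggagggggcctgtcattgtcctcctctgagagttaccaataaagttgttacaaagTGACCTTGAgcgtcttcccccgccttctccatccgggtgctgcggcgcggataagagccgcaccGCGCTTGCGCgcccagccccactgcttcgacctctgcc
Cox7a1, plus strand, chr7:30183921-30184220: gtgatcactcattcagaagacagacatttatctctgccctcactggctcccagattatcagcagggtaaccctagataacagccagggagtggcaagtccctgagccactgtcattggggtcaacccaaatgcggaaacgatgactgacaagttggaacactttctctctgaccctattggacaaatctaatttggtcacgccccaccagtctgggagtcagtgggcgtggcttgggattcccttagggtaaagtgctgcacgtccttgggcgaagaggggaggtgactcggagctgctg
Cox7a2, minus strand, chr9:79759804-79760103: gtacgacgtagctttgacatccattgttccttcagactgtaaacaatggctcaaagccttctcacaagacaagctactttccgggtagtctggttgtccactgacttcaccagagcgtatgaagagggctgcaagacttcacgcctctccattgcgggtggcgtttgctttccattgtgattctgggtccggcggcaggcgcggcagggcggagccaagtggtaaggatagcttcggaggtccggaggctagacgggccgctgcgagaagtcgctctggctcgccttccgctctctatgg
Atp5g2 held 1 match to the NRF1 letters, Atp5g3 held 1 to the NRF1 letters and 1 to those of the estrogen-related receptors, and the windows of Atp5g1, Cox7a1 and Cox7a2 held none of the 4 motifs. Tested genes with the NRF1 letters had a median day 6 to day 0 change of -0.27 in WT on the log2(FPKM + 1) scale (16 genes) and those without it -0.12 (51 genes); in the libraries labelled KO the medians were -0.61 and -0.46. For the ETS letters the order was the opposite, with -0.05 for the 16 genes with them and -0.26 for the 51 without in WT, and -0.46 and -0.56 in the libraries labelled KO.

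Levels spanned a wide range. By the mean over all libraries, the nuclear complex I genes ran from 0.328 FPKM for Ndufs6b, a processed pseudogene, to 398 for Ndufb7, with a median of 151. Complex II ran from 63.2 (Sdhc) to 140 (Sdhb), complex III from 81.1 (Uqcrc2) to 674 (Uqcr10), complex IV from 0.268 (Cox8c) to 1198 (Cox7c) and complex V from 10.6 (Atp5e) to 4827 (Atp5b, the catalytic beta subunit). Tested nuclear members together took 2.35 to 3.32% of the summed FPKM, by group mean, and the 13 mitochondrial mRNAs 7.75 to 11.2%. Much of the latter was mt-Atp8, whose FPKM is not comparable with those of longer genes. Without it the mitochondrial mRNAs took 4.18 to 5.57%. In bulk RNA, fewer cells of a type and less RNA per cell cannot be told apart.

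From day 0 to day 6 most nuclear subunit genes fell in every line, while a few rose. In WT 45 of the 83 fell and 17 rose, with a median log2 change of -0.19; of all genes tested 34.5% fell and 43.6% rose (78.1% in all), and their median was 0.09. Of the members in the libraries labelled KO 67 fell and 6 rose, with a median of -0.52, where 35.4% of all genes fell and 45.0% rose (80.4%). Without Dex, 61 fell and 13 rose in the fusion line, with a median of -0.36, where 33.9% of all genes fell and 48.0% rose (81.9%). With Dex, 53 fell and 14 rose, with a median of -0.30, where 34.0% of all genes fell and 46.4% rose (80.4%). The share of members that changed in either direction was thus near that of all genes, and the direction differed: 40 of the 83 (48.2%) fell in all 4 lines, against 23.6% of all genes tested, and 4 (4.82%) rose in all 4, against 32.7%. Those 4 were Ndufa4l2, Ndufs4, Uqcrh and Cox7a2l. Rescaling the libraries by the median of ratios moved the median of all genes by -0.11 to -0.20 in these comparisons and gave 7 rises and 60 falls in WT, 3 and 69 without Dex, and 8 and 69 with Dex; rescaling by the total of nuclear genes gave 22 and 45 with Dex.

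The fall was not even across complexes, which were assigned by gene name, so Ndufa4 and Ndufa4l2 are counted under complex I. In WT the median change was -0.42 for complex IV (2 rose and 8 fell of 15), -0.23 for complex I (11 and 21 of 39), -0.17 for complex V (2 and 11 of 17), -0.11 for complex III (2 and 4 of 8) and -0.06 for complex II (0 and 1 of 4). In the libraries labelled KO the medians ran from -0.41 for complex II to -0.68 for complex IV. Complex IV had the lowest median of the 5 complexes in each of the 4 lines; no test compared the complexes. Of the 83 nuclear genes in WT, 32 had their highest group mean on day 0, 25 on day 2, 21 on day 4 and 5 on day 6. In the libraries labelled KO it was at day 0 for 47, day 2 for 29, day 4 for 4 and day 6 for 3. In the fusion line without Dex it was at day 0 for 64 and at day 6 for 13, and with Dex it was at day 0 for 49 and at day 6 for 18. No such counts were made over all genes tested, so these describe the members alone.

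**Figure D1:**
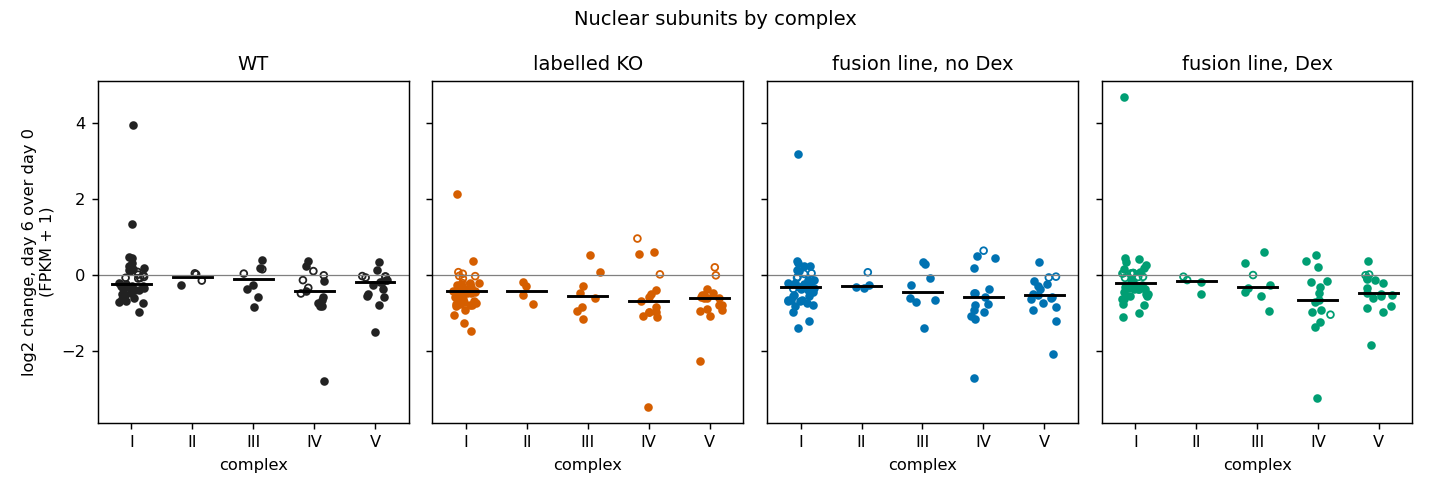
Log2 change from day 0 to day 6, on FPKM + 1, of the 83 tested nuclear genes, 1 panel per line and 1 column per complex; filled points passed an adjusted p of 0.05, open points did not, and bars are medians. Most points lie below 0 in each panel; Ndufa4l2 is the high point of complex I, and Cox7a1 and Atp5g1 are the low points of complexes IV and V.

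Among the core subunits, Uqcrc1, a core protein of complex III, had 344 and 334 FPKM at day 0 in WT and 194 and 186 at day 6. It fell by 0.83 (SE 0.027, adjusted p = 3.56e-16) in WT and by 1.40 in the fusion line without Dex. Cox5a, a structural subunit of complex IV, fell by 0.80 in WT and by 0.97 to 1.14 in the other lines. Ndufs8, an iron-sulfur subunit of complex I, had 122 and 121 FPKM at day 0 in WT and 73.5 and 72.3 at day 6; in the libraries labelled KO the values were 107 and 105, then 37.9 and 37.0. The libraries of the 2 days did not overlap in either line, and the fall was 0.73 in WT (SE 0.027) and 1.48 in those labelled KO (adjusted p = 3.71e-20). Atp5b had 5937 and 7095 FPKM in the WT day 0 libraries and 3710 and 3868 at day 6, a fall by 0.78 (SE 0.056, adjusted p = 1.35e-10), and it fell in the other lines by 0.91 to 1.21. Sdhb, the iron-sulfur subunit of complex II, had 137 and 144 FPKM at day 0 and 142 and 144 at day 6 in WT (0.03, not past the threshold), and it fell by 0.52 in the libraries labelled KO.

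Of the 83 nuclear genes, Ndufa4l2, Cox7a1 and Atp5g1 had the 3 largest changes from day 0 to day 6 in each of the 4 lines. The isoform genes Atp5g2 (-0.04) and Cox7a2 (0.11) did not pass the test in WT. Ndufa4l2 (GRCm38 chromosome 10, 127514967 to 127517154) encodes a relative of the NDUFA4 subunit and is a known target of the hypoxia-inducible factor. In WT its 2 libraries gave 0.40 and 0.47 FPKM at day 0, 16.5 and 16.8 at day 2, 63.6 and 66.1 at day 4, and 21.3 and 21.3 at day 6. In the libraries labelled KO it had 2.52 and 0.54 at day 0, 101 and 94.5 at day 2, 50.6 and 52.7 at day 4, and 8.18 and 10.6 at day 6. In every line the gene was lowest at day 0 and then rose, with its peak at day 4 in WT and at day 2 in the other lines. The rise to day 6 was 3.96 in WT (SE 0.21, adjusted p = 1.4e-12), 2.15 in the libraries labelled KO, 3.19 in the fusion line without Dex and 4.71 with Dex. Its partner Ndufa4 stayed between 305 and 452 FPKM in all 32 libraries, so Ndufa4l2 made up 0.108 and 0.133% of the summed FPKM of the pair at day 0 in WT and 13.4 and 13.7% at day 4. Cox4i2, the isoform of the COX4 subunit induced by low oxygen and outside the name rule, went from a mean of 0.625 FPKM at day 0 to 14.9 at day 6 in WT and from 0.515 to 4.31 in the libraries labelled KO, rises of 3.29 and 1.81. Of the 13 hypoxia response genes tested, 11 rose and 1 fell from day 0 to day 6 in WT (median 2.36), and 10 rose and 2 fell in the libraries labelled KO (median 1.53). Of all genes tested 43.6% rose and 34.5% fell in WT, and 45.0% rose and 35.4% fell in those labelled KO. Bnip3, a mitophagy receptor, rose by 3.95 in WT and Slc16a3, a lactate exporter, by 3.56. Of the 21 rows of the glycolysis list 15 rose and 5 fell in WT (median 0.80), against the same 43.6% and 34.5% of all genes. Whether these lists have a part in the Ndufa4l2 values was not tested.

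Cox7a1 (chromosome 7, 30184144 to 30186078), the heart and muscle isoform of a complex IV subunit, went the other way. In WT it had 70.4 and 54.0 FPKM at day 0, 20.1 and 17.5 at day 2, 20.2 and 15.2 at day 4, and 6.39 and 10.2 at day 6. Those labelled KO had 88.9 and 106 at day 0 and 10.7 and 5.67 at day 6. Each day 0 library lay above each later library in all 4 lines, and the fall to day 6 was 2.78 in WT (SE 0.24, adjusted p = 2.06e-09), 3.48 in those labelled KO, 2.71 without Dex and 3.22 with Dex. Cox7a2, the isoform found in most tissues, had 77.8 and 84.0 FPKM at day 0 in WT and 86.0 and 88.7 at day 6 (0.11, not past the threshold). Cox7a1 thus held 47.5 and 39.1% of the FPKM of the pair in the WT day 0 libraries and 6.92 and 10.3% at day 6. The principal transcript of Cox7a1 has 393 bases and that of Cox7a2 659. A fit to the low values subtracts 279 to 301 bases from lengths, so the size of this share is uncertain. The 6 muscle and heart markers summed to 7.63 to 14.8 FPKM in the day 0 libraries, where 4 of them stayed under 1 FPKM in every library and none was at 0 in all. The other muscle isoforms were near absent, with at most 0.37 FPKM for Cox6a2 and 0 in all libraries for Cox8b. The testis isoforms Cox7b2 and Cox8c reached at most 2.19 and 1.85 FPKM, both at day 0. The 4 germ line markers summed to 117 to 185 FPKM at day 0 and to 1.47 to 10.5 at day 6; their part in these values was not tested.

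Subunit c of the ATP synthase ring is made from 3 genes whose products differ in the import sequence that is removed. Atp5g1 (chromosome 11, 96068852 to 96075670) had 407 and 436 FPKM at day 0 in WT, 373 and 385 at day 2, 243 and 247 at day 4, and 152 and 147 at day 6. Those labelled KO had 503 and 528, then 261 and 269, then 148 and 141, and 107 and 108 at day 6. It fell stepwise in all 4 lines, by 1.49 in WT (SE 0.037, adjusted p = 6.24e-18), 2.25 in those labelled KO, 2.07 without Dex and 1.84 with Dex. Atp5g2 did not pass the test in any line (-0.04 to 0.02), with 400 and 345 FPKM at day 0 and 363 and 362 at day 6 in WT. Atp5g3 fell by 0.26 in WT and by 0.52 to 0.62 in the other lines. The share of Atp5g1 in the FPKM of the 3 genes went from 31.5 and 33.9% to 16.4 and 15.9% in WT. With near-identical copies of Atp5g1 elsewhere in the genome added to it, the falls were 1.49, 2.23, 2.05 and 1.83 in the same order of lines.

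**Figure D2:**
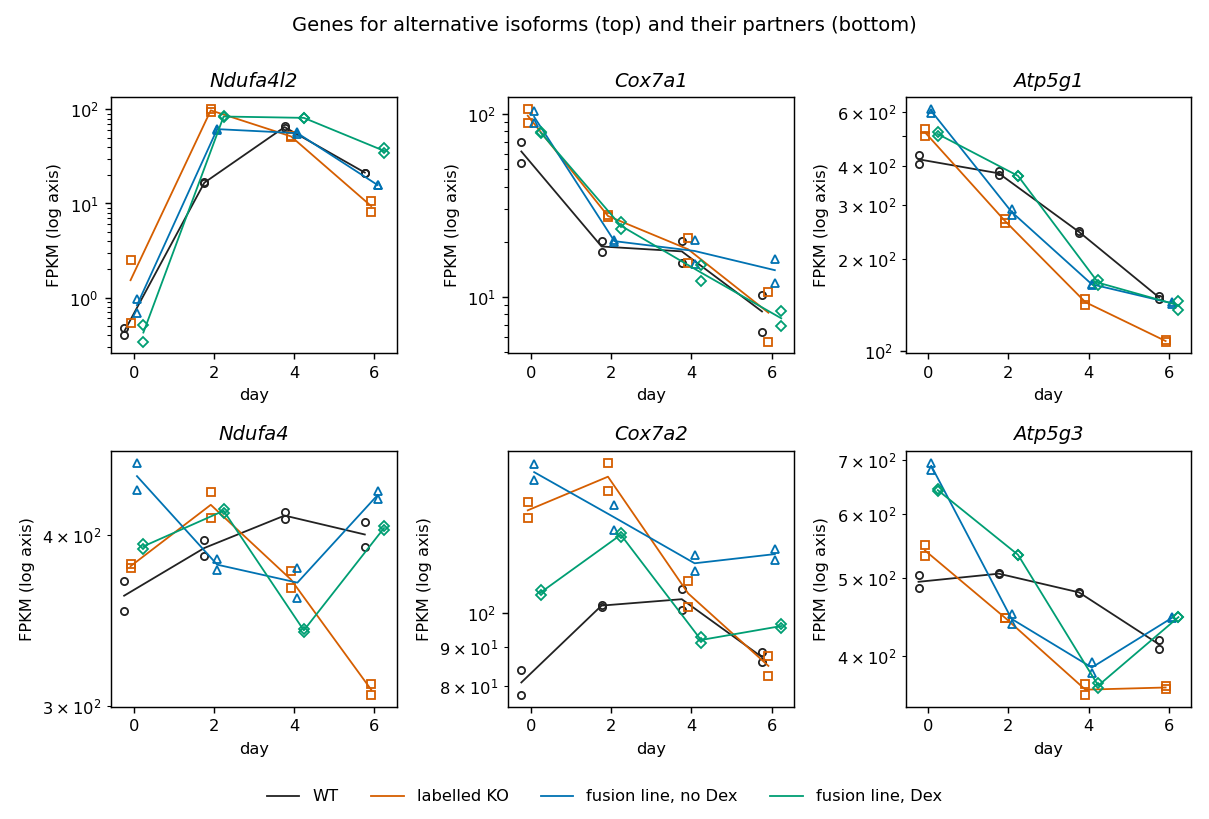
FPKM (log axes) by day of Ndufa4l2, Cox7a1 and Atp5g1 above and of Ndufa4, Cox7a2 and Atp5g3 below; each symbol is 1 library and lines join the means of 2. Ndufa4l2 rises from under 3 FPKM at day 0, while Cox7a1 and Atp5g1 fall in all 4 lines and the partners in the lower row move less.

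In the libraries labelled KO against WT, nuclear subunit genes were mostly higher at day 0 and mostly lower at days 4 and 6. At day 0 42 were higher and 10 lower of 83 (median 0.14), where 18.4% of all genes were higher and 29.8% lower (48.2% in all). The counts were 31 and 23 on day 2 (median 0.05), where 37.5% and 21.3% of all genes were (58.9%). On day 4 they were 8 and 53 (median -0.20), against 36.5% and 24.0% of all genes (60.5%). Day 6 gave 10 and 46 (median -0.17), against 30.9% and 34.2% of all genes (65.1%). The medians of all genes were between -0.04 and 0.09. Of the 89 genes for cytosolic ribosomal proteins, 66 were higher and 3 lower at day 0, 23 and 35 on day 2, 5 and 62 on day 4, and 13 and 53 on day 6; the part of what moves these genes in the nuclear subunit counts was not tested. The split depended on the scale: with rescaling by the nuclear total it was 30 and 15 at day 0 and 13 and 41 at day 4, by the median of ratios 16 and 36 at day 2, and with the trend on transcript length removed 24 and 18 at day 0 and 19 and 34 at day 2. Fitted on the 4 libraries of day 0 alone, 14 nuclear genes were called there. Complex V had no higher genes at day 4 (0 higher and 15 lower of 17) or day 6 (0 and 13). Nor did complex II, with 0 and 3 of 4 at day 4 and 0 and 2 at day 6.

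Of the nuclear genes, 4 were higher in the libraries labelled KO on all 4 days (Uqcrfs1, Uqcrq, Ndufa13 and Ndufb7) and 7 were lower on all 4 (Ndufs1, Ndufv1, Ndufs8, Ndufa9, Sdha, Atp5a1 and Atp5pb). This is 4.82% and 8.43% of the members, against 6.75% and 5.96% of all genes tested. By the median of ratios, Ndufb7 was no longer higher at day 4 (-0.02). Uqcrfs1 (chromosome 13, 30540308 to 30545362), the Rieske iron-sulfur protein of complex III, had 97.4 and 88.2 FPKM in WT and 120 and 125 in those labelled KO at day 0. At day 6 it had 96.3 and 94.9 in WT and 177 and 181 in those labelled KO. The groups did not overlap on any day, and the differences in order of day were 0.40, 0.66, 0.54 and 0.90 (SE 0.035, adjusted p = 2.74e-14 at day 6). Ndufa13 and Ndufb7 lie on chromosome 8, where the 858 genes tested had a median difference of 0.35 at day 6 against -0.05 on the other chromosomes; the 2 genes were higher by 0.13 and 0.24, and the part of the chromosome in their values was not tested. Of the 7 lower genes, Ndufs1, Ndufv1 and Ndufs8, encode iron-sulfur or flavin subunits of the matrix arm of complex I. Ndufs8 was lower by 0.20, 0.30, 0.82 and 0.94 in order of day.

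Sdha and Ndufa1 were higher in WT than in the other lines at day 6. The WT libraries of that day also stood apart in cell type markers: the extraembryonic endoderm markers summed to 39.8 and 39.0 FPKM, against 0.18 to 3.99 in the other day 6 libraries, and the eye field markers to 681 and 647, against 117 to 416.5. All 4 extraembryonic markers were lower in the libraries labelled KO than in WT on days 2, 4 and 6, and 3 of 4 at day 0. The part of these cells in the values was not tested. Sdha (chromosome 13, 74322254 to 74350280), the flavoprotein of complex II, had 147 and 175 FPKM in WT at day 0, 94.3 and 91.0 at day 2, 95.7 and 103 at day 4, and 135 and 132 at day 6. The libraries labelled KO had 143 and 142, then 68.2 and 72.8, then 88.6 and 84.9, and 83.6 and 82.7. The difference at day 6 was -0.68 (SE 0.06, adjusted p = 6.74e-09), whereas the calls at days 0 and 4 (-0.17 and -0.19) were lost without either library labelled KO of day 0, without WT day 0 replicate 2 (-0.05), without WT day 4 replicate 2 (-0.14) and without the second library labelled KO of day 4 (-0.16). Ndufa1 (chromosome X, 37187588 to 37191163), a small membrane subunit of complex I, had 153 and 185 FPKM in WT at day 0 and 433 and 433 at day 6. The libraries labelled KO had 195 and 212, then 219 and 212. Both WT day 6 libraries lay above every other library, and the difference at day 6 was -1.004 (SE 0.074, adjusted p = 4.43e-10). Cox6b2, the testis isoform of a complex IV subunit, had 90.0 and 92.3 FPKM in WT at day 2 and 204 and 207 in the libraries labelled KO, a difference of 1.16 (SE 0.064, adjusted p = 1.11e-11). At day 0 the order was the opposite, with 105 and 117 in WT and 78.1 and 69.1 in those labelled KO (-0.59). Ndufa4l2 was higher at day 2 by 2.48 and lower at day 6 by 1.11. Of 13 hypoxia response genes 11 were higher at day 2 (median 1.14), where 37.5% of all genes were higher. At day 6, 7 were lower and 2 higher (median -0.25), against 34.2% and 30.9% of all genes. The part of these genes in the Ndufa4l2 values was not tested.

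**Figure D3:**
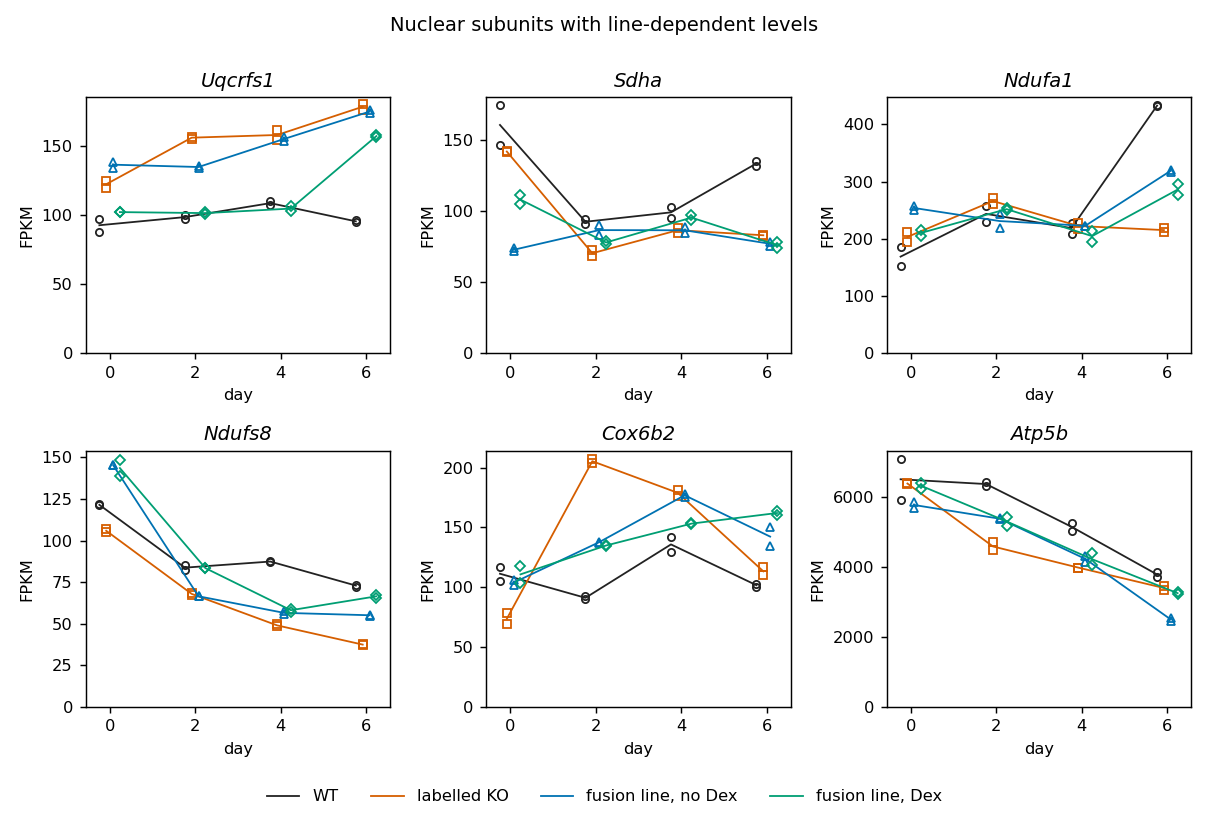
FPKM by day of 6 nuclear genes; each symbol is 1 library, lines join the means of 2, and axes start at 0. Uqcrfs1 is higher in the libraries labelled KO and the fusion line without Dex, and Sdha and Ndufa1 are highest in WT at day 6 among the day 6 libraries.

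For 60 of the 83 nuclear genes the day 6 to day 0 change was not the same in the libraries labelled KO as in WT, by an interaction term: it was lower for 55 and higher for 5 (median -0.33), where 25.8% of all genes were lower and 31.1% higher (56.9%, median 0.02). The differences of changes were -1.81 for Ndufa4l2, -1.28 for Ndufa1, -0.79 for Cox7a2 and -0.78 for Ndufb4, and 0.74 for Cox6b2 and 0.50 for Uqcrfs1. Sdha and Sdhb had -0.51 and -0.55, so complex II lost more in the libraries labelled KO for 3 of its 4 genes.

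The fusion line without Dex differed from the libraries labelled KO in a way that changed with the day. These comparisons share the libraries labelled KO with those above. At day 0 64 nuclear genes were higher and 5 lower (median 0.26), where 19.3% of all genes were higher and 29.8% lower (49.1% in all). Day 6 gave 67 higher and 3 lower (median 0.42), against 21.1% and 27.9% of all genes. Between them, day 2 gave 9 higher and 37 lower (median -0.09), against 14.8% and 22.2% of all genes (37.0%), and day 4 gave 27 higher and 0 lower (median 0.08), against 9.66% and 17.0% (26.7%). Rescaling by the nuclear total gave 36 and 8 at day 0 and 10 and 2 at day 4; removing the length trend gave 11 and 9 at day 2. The day 2 count dropped from 46 to 22 without the second library labelled KO and to 26 without noDex replicate 2, and the day 4 count from 27 to 17 without the first library labelled KO and to 16 without noDex replicate 2. At day 4 limma gave 38 higher and 0 lower at an unadjusted p under 0.05.

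The genes lower at day 0 were Sdha, Atp5a1, Atp5b, Ndufs1 and Uqcrc2, and those lower at day 6 were Atp5b, Ndufv1 and Uqcrc1. Sdha had 73.9 and 71.95 FPKM at day 0 in the fusion line without Dex, against 143 and 142 in the libraries labelled KO, lower by 0.95 (SE 0.06, adjusted p = 1.9e-10). Atp5b had 2452 and 2552 FPKM at day 6, the lowest of all groups, against 3448 and 3357 in those labelled KO (-0.44, SE 0.056). Ndufv1 was lower by 0.30. At day 6 the largest positive difference was that of Ndufa3, an accessory subunit of complex I, at 0.86 (SE 0.067, adjusted p = 2.67e-09). Atp5c1, Atp5g1 and Atp5pb were higher on all 4 days (3.61% of the members, against 0.326% of all genes tested); with its copies added, the day 2 call of Atp5g1 was lost (0.09, adjusted p = 0.0628).

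The day 6 difference followed transcript length. Its median was 0.50 for the 24 members with a principal transcript of at most 600 bases, 0.46 for the 27 above that and up to 1000, 0.28 for the 24 above 1000 and up to 2000, and 0.18 for the 8 above. Other genes in the same bins had medians of 0.09, 0.14, 0.00 and -0.06. Members are short, with a median of 809 bases against 2574.5 for all genes tested, and across the 83 genes, which share libraries and depth, Spearman's rho of the difference with length was -0.41 at day 6. It was -0.45 for the libraries labelled KO against WT at day 2 and 0.45 for Dex against no Dex at day 6. The genes for cytosolic ribosomal proteins, also short and abundant, moved alongside: 80 of 89 were higher and 2 lower at day 6 (median 0.50), and 81 and 1 at day 0 (median 0.34). With the trend of all genes on length removed, 65 members were higher and 3 lower at day 6.

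**Figure D4:**
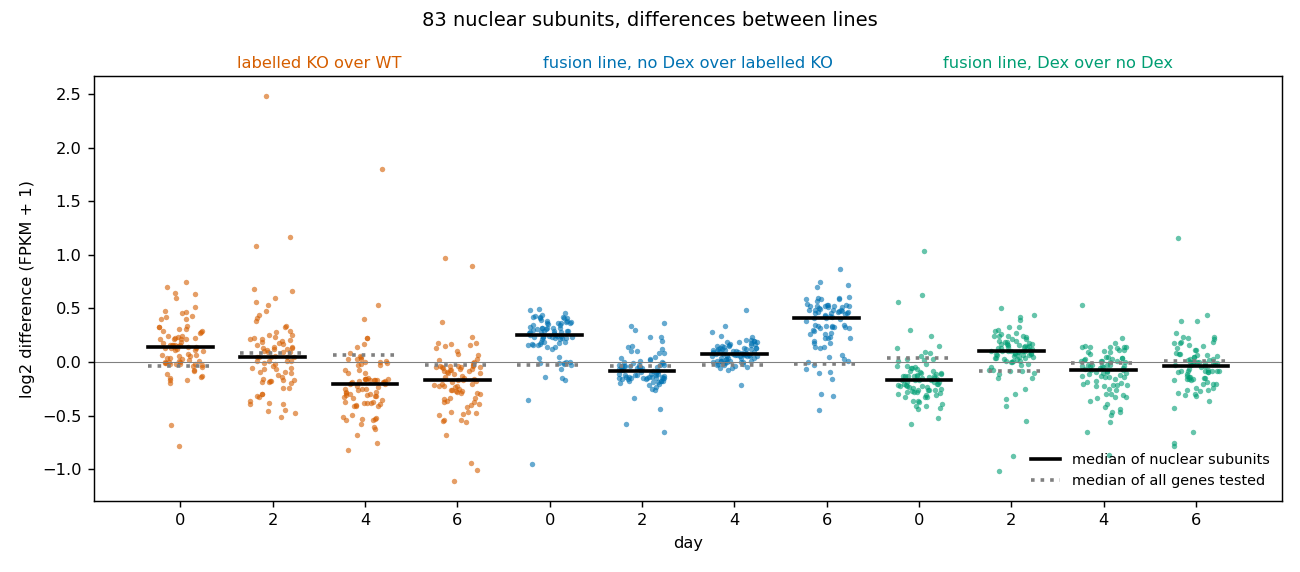
Log2 differences between lines, on FPKM + 1, for the 83 nuclear genes at each day; points are genes, black bars their medians and dotted bars the medians of all genes tested. The fusion line without Dex lies above the libraries labelled KO at days 0 and 6, with medians of 0.26 and 0.42.

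With Dex, the fusion line differed from the same line without it at day 0 already. On that day 2 nuclear genes were higher and 54 lower (median -0.17), where 27.3% of all genes were higher and 16.1% lower (43.4% in all). On day 2 39 were higher and 7 lower (median 0.10), against 12.7% and 31.5% of all genes (44.3%). Day 4 gave 10 and 29 (median -0.07), against 18.3% and 21.9% of all genes (40.2%), and day 6 gave 18 and 27 (median -0.04), against 23.8% and 19.0% (42.7%). Rescaling by the nuclear total gave 8 and 34 at day 0 and 17 and 13 at day 2, and removing the length trend gave 14 and 21 at day 4. Uqcrfs1 was lower with Dex on all 4 days, as were Cox6a1, Cox6c, Ndufa2 and Uqcr10 (6.02% of the members, against 1.07% of all genes tested). By the median of ratios, Ndufa2 and Cox6c were no longer lower at day 2 (0.008 and 0.009). For Uqcrfs1 the libraries had, in order of day, 102 and 102, 101 and 102, 103 and 106, and 156 and 158 FPKM with Dex. Without Dex they had 135 and 139, 136 and 134, 157 and 154, and 174 and 176. At days 0, 2 and 4 the Dex values lay closer to those of WT than to those without Dex, and at day 6 they did not; for day 0 it is unclear whether these cells had received Dex. In order of day, the differences from no Dex were -0.41, -0.41, -0.56 and -0.15.

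At day 6 Ndufa4l2 had 38.4 and 34.1 FPKM with Dex and 15.8 and 15.6 without, higher by 1.16 (SE 0.21, adjusted p = 0.000211). Of 13 hypoxia response genes 8 were higher and 1 lower, against 23.8% and 19.0% of all genes. Ndufv1 was higher by 0.44, Uqcrc1 by 0.38 and Atp5b by 0.38 (adjusted p = 1.83e-05). Ndufs8 had 67.3 and 65.6 FPKM with Dex and 54.9 and 55.3 without (0.27), between the libraries labelled KO and WT. Sdha had 78.2 and 74.2 FPKM with Dex and 75.9 and 78.4 without, a difference of -0.02, and Ndufa1 277 and 295 against 317 and 321 (-0.16, not past the threshold).

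The libraries labelled KO against WT and Dex against no Dex share no libraries, and both were called in opposite directions for many members. At day 0 39 members were called in both, and all 39 had opposite directions; over all genes tested this was 92.8% of 4999. At day 2 24 of 32 (75.0%) were opposite against 82.3% of all genes, at day 4 15 of 27 (55.6%) against 84.3%, and at day 6 19 of 29 (65.5%) against 53.4%. Under the nuclear total the day 4 count was 20 of 27, and by the median of ratios it was 15 of 29. At day 0 the median of ratios gave 43 of 46 with opposite directions. No test compared these shares with the background. The interaction of Dex with day was called for 45 nuclear genes, 39 with a higher and 6 with a lower change with Dex (median 0.13), where 22.7% of all genes were higher and 25.9% lower (48.7%, median -0.02); by the median of ratios the counts were 51 and 1.

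The 13 mitochondrial mRNAs did not follow the nuclear genes in every comparison. They are cut from long transcripts of both strands, and mt-Atp8 and mt-Atp6 share one mRNA with overlapping reading frames. The overlap is shown because it belongs to both genes, and the values do not show how its fragments were assigned. It spans 43 bases, chrM:7927-7969 on GRCm38, plus strand.
mt-Atp8 and mt-Atp6 overlap: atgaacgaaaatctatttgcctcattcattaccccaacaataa
mt-Atp8 had 31562 to 60627 FPKM and mt-Atp6 1349 to 2990. The mt-Atp8 transcript has 204 bases, fewer than the 279 to 301 bases that a fit to the low values of the table subtracts from transcript lengths, so its FPKM is not comparable with those of longer genes. Near-identical nuclear copies on chromosome 1 carried much of the signal of others: of the FPKM of gene and copies, 95.6% stood in the copy for mt-Nd3, 80.6% for mt-Atp6, 53.2% for mt-Co3 and 52.7% for mt-Co2. These values are uncertain, and mt-Nd1, mt-Nd5, mt-Nd6, mt-Cytb and mt-Nd2 had 0.0% in copies. The strand setting of the counts is not given in the sources used here, so mt-Nd6, the light-strand mRNA, and RNA opposite to it cannot be told apart.

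The WT day 0 libraries differed from each other: all 13 mRNAs took 12.1% of the summed FPKM in replicate 1 and 9.42% in replicate 2, against SDs of at most 0.236 percentage points in the other 15 groups. Without mt-Atp8 the shares in these libraries were 5.72% and 4.79%. Nuclear counts were little touched: without replicate 1 or 2, 19 or 17 nuclear genes rose and 45 fell to day 6 in WT, and 46 or 42 were higher and 8 or 11 lower in the day 0 libraries labelled KO. From day 0 to day 6, 1 was higher and 8 lower in WT (median -0.26), 2 and 4 in the libraries labelled KO (median -0.10), 0 and 13 in the fusion line without Dex (median -0.43) and 0 and 10 with Dex (median -0.43); limma gave the same 0 higher in both fusion groups at an unadjusted p under 0.05. Of all genes tested 78.1%, 80.4%, 81.9% and 80.4% were called in these comparisons, so the share of mRNAs called was above it in the fusion line without Dex, at 13 of 13, and below it in the others. The WT counts were 2 and 6 without WT day 0 replicate 1 and 1 and 11 without replicate 2. Rescaling by the median of ratios gave 0 and 11 in WT and 2 and 10 in the libraries labelled KO, and by the nuclear total 3 and 2 in the latter. mt-Co1, the catalytic subunit of complex IV, had 10959 and 9321 FPKM at day 0 in WT and 7910 and 7990 at day 6 (-0.35). In the fusion line without Dex it had 10380 and 10335, then 6963 and 6937 (-0.58). mt-Nd1, a core membrane subunit of complex I, had 6015 and 6335 FPKM at day 0 in the libraries labelled KO and 8218 and 8151 at day 6, a rise of 0.41. In the fusion line without Dex it had 7972 and 7822, then 6374 and 6295 (-0.32), and in WT 6300 and 5189, then 5451 and 5424 (-0.07, not past the threshold). mt-Cytb, the cytochrome of complex III, had 8025 and 8223 FPKM at day 0 in the libraries labelled KO and 6105 and 5078 in WT (0.55), and at day 6 5439 and 5437 against 5233 and 5256 (0.05, not past the threshold).

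Between lines, the share of the 13 mRNAs called was below that of all genes for the libraries labelled KO against WT on all 4 days (48.2%, 58.9%, 60.5% and 65.1% of all genes in order of day). In that comparison 4 were higher and 2 lower at day 0, 0 and 6 at day 2, 5 and 2 at day 4, and 6 and 1 at day 6; the nuclear total gave 2 and 3 at day 0 and 7 and 0 at days 4 and 6, and the median of ratios 2 and 3 at day 4 and 7 and 0 at day 6. Removing the length trend gave 2 and 4 at day 0 and 5 and 1 at day 4. The day 0 direction rested on the WT libraries, with 7 higher and 2 lower without WT day 0 replicate 1 and 2 higher and 6 lower without replicate 2. The day 2 count dropped from 6 to 3 without the second library labelled KO. On day 6 mt-Nd1 was higher in the libraries labelled KO by 0.59 and mt-Nd2 by 0.48. In the fusion line without Dex against those labelled KO, 11 were higher and 1 lower at day 0 (3 and 2 with the nuclear total), 2 and 0 at day 2, 0 and 5 at day 4, and 1 and 7 at day 6. Of all genes 49.1%, 37.0%, 26.7% and 49.05% were called, so the counts were above that share on days 0, 4 and 6 and below it on day 2. Where limma called 0 on days 2 and 4, it gave 1 lower and 0 higher at an unadjusted p under 0.05. The day 4 count was 3 without the second library labelled KO. mt-Nd6 had 5174 and 4835 FPKM at day 0 without Dex and 3014 and 3043 in the libraries labelled KO, and 3950 and 3948 against 2832 and 2847 at day 6. It was higher by 0.72 and 0.47. mt-Nd4l was lower by 0.35 and 0.53, while 11 of the 13 mRNAs were higher at day 0 and 7 were lower at day 6. The mt-Nd4l transcript has 297 bases, within the 279 to 301 bases subtracted from lengths, so its FPKM has the limit given for mt-Atp8. With Dex against no Dex, 3 were higher and 5 lower at day 0, 2 and 2 at day 2, 2 and 5 at day 4, and 1 and 1 at day 6, where 43.4%, 44.3%, 40.2% and 42.7% of all genes were called. The median of ratios gave 2 and 7 at day 0, 5 and 0 at day 2 and 0 and 1 at day 6; the nuclear total gave 1 and 4 at day 2; and removing the length trend gave 3 and 3 at day 0, 2 and 3 at day 4 and 0 and 2 at day 6. The day 2 count was 2 without noDex replicate 1, the day 4 count 4 without the first Dex library, and the day 6 count 0 without any 1 of its 4 libraries. The interaction of the KO label with day was called for 7 mRNAs (56.9% of all genes called), 6 of them with a higher change, and this count was 4 without the second library labelled KO of day 6. It was 2 higher and 3 lower without WT day 0 replicate 1, and 9 higher and 1 lower without replicate 2. The interaction of Dex with day was called for 6 (48.7% of all genes called), 4 with a higher and 2 with a lower change, and the median of ratios gave 4 and 1 and the nuclear total 3 and 3.

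**Figure D5:**
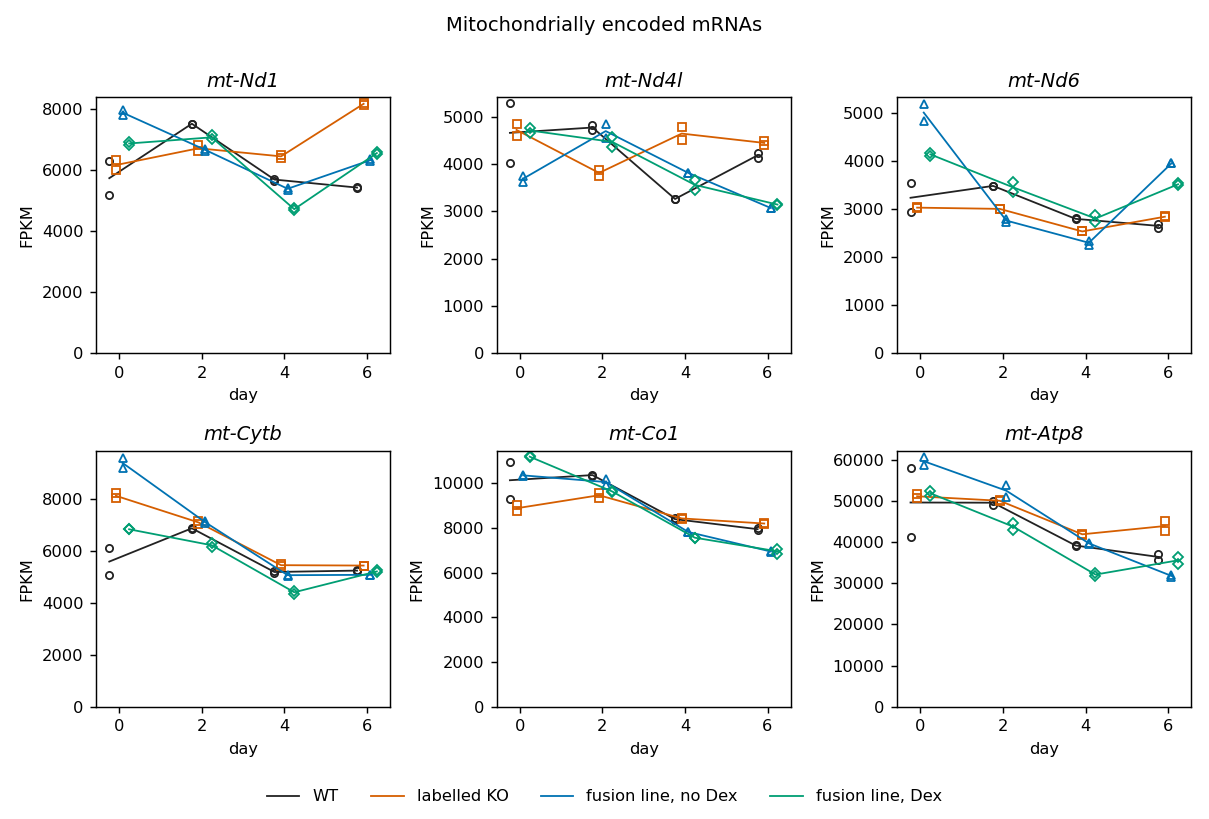
FPKM by day of 6 mitochondrially encoded mRNAs; each symbol is 1 library, lines join the means of 2, and axes start at 0. The WT day 0 libraries lie apart from each other, mt-Nd1 is highest in the libraries labelled KO at day 6, and mt-Nd6 is highest in the fusion line without Dex at days 0 and 6.

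Near-identical copies also touched nuclear members. Ndufb4 and Ndufb4c are identical over the aligned stretch and had means of 40.1 and 347 FPKM, so the 2 should be read together. Copies held 66.7% of the summed FPKM for Cox7a2l and 61.3% for Ndufs5. With the copies added to their gene, the difference of the fusion line without Dex from the libraries labelled KO at day 6 turned from 0.26 to -0.01 for Cox7a2l.

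Of the related lists, genes for assembly factors leaned higher in the libraries labelled KO: 24 were higher and 4 lower of 47 at day 0, and 21 and 10 at day 6 (medians 0.22 and 0.12). This is 59.6% and 66.0% called, against 48.2% and 65.1% of all genes. Coa7, a complex IV assembly factor, was higher by 0.97 at day 0 and 1.31 at day 6. Genes for mitochondrial ribosomal proteins were higher for 64 and lower for 1 of 78 at day 0 (83.3% called, against 48.2% of all genes), and lower for 59 and higher for 5 with Dex against no Dex at day 0 (82.05% called, against 43.4% of all genes). From day 0 to day 6 in WT, where 78.1% of all genes were called, 2 of the 24 genes for upkeep and transcription of mitochondrial DNA rose and 13 fell (62.5% called), and Polrmt, the mitochondrial RNA polymerase, fell by 0.80. Of the 16 genes of the TCA cycle, 5 rose and 10 fell (93.8% called). Of the 11 nuclear regulators tested 2 rose and 8 fell (90.9% called); Esrrb, also a pluripotency factor, fell by 4.74 and Gabpa by 1.17.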

How the data were processed

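The authors deposited FPKM values, fragments per kilobase of transcript, scaled to depth, for 55492 genes in 32 libraries; STAR, Cuffdiff and mm10 are named in the submitters' processing notes, without versions. Low values fitted whole fragments when 279 to 301 bases were subtracted from transcript lengths, so 87.1 to 91.7% of them lay within 0.2 of a whole number (40% by chance), and depth was estimated as 27.7 to 53.5 M fragments. Values were tested as log2(FPKM + 1) with limma 3.58.1 in R 4.3.3 (moderated test with a mean-variance trend, two-sided), in 1 fit of 16 group means with 16 residual degrees of freedom. Genes at 1 FPKM or more in at least 2 libraries, 16276 in all, were tested, and those under a Benjamini-Hochberg adjusted p of 0.05 were called; differences understate changes of low genes. The fit was tested on simulated data. Near-identical copies were found with blastn 2.17.0, at 95% identity or more over at least 100 bases. Sequences came from RefSeq, GRCm38.p6.

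Genes were named by a fixed rule: the mitochondrial mRNAs, core subunits, isoform genes, and in each comparison the 4 largest rises and 4 largest falls among called nuclear members; Sdhd, Ndufa13 and Ndufb7 and other genes named for their place in a small count were chosen after their values were seen. Members and lists were chosen with earlier results of these data known. Alternatives were a pseudocount of 0.1, no filter, a mean of at least 5 FPKM, rescaling by median of ratios or nuclear total, totals without mitochondrial rRNA and tRNA, the compared groups alone, a replicate block and leaving out each library; adding near-identical copies and removing the trend on transcript length were chosen after seeing the data.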

Additional observations from a re-analysis of the deposited data

Results flagged for a closer look

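The change from day 0 to day 6 differed by an interaction term in limma between the libraries labelled KO and WT for 60 nuclear and 7 mitochondrial genes. This is 72.3% and 53.85% of those tested, against 56.9% of all genes. Among the named genes the change was higher in the libraries labelled KO by 0.74 for Cox6b2, 0.50 for Uqcrfs1, 0.22 for Ndufs7 and 0.19 for Cox7a2l. It was lower for Ndufa4l2 (-1.81), Ndufa1 (-1.28), Cox7a2 (-0.79) and Ndufb4 (-0.78). The same change differed between the fusion line with and without Dex for 45 nuclear and 6 mitochondrial genes (54.2% and 46.15%), against 48.7% of all genes. It was higher with Dex by 1.51 for Ndufa4l2, 0.51 for Atp5d, 0.45 for Uqcrc1 and 0.44 for Ndufs5, and lower for Atp5e (-0.81), Sdha (-0.58), Ndufs1 (-0.17) and Cox7c (-0.13). The Ndufs5, Cox7a2l and Ndufb4 values rest on rows that share sequence with a copy; for Ndufb4 it is Ndufb4c, whose own interaction with the KO label was -0.22 and did not pass (adjusted p = 0.0878).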

How the results depend on the processing

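Of the counts of called genes in 18 comparisons, those of nuclear genes stayed within 1.5 times under the pseudocount of 0.1, the mean of 5 FPKM, the copies and the replicate block (no count of either genome moved further under the block; duplicate differences correlated at -0.27 to 0.30 over 120 pairs of groups, 23 of them over 0.1, which gives no pairing by number). With the compared groups alone, which leaves 2 residual degrees of freedom, nuclear counts were 14 for KO against WT at day 0, and 28 and 15 for noDex against KO at days 2 and 4; mitochondrial counts were 1 for WT day 6 against day 0, 10 for KO day 6 against day 0, 0 for KO against WT at day 0, 8 for noDex against KO at day 4 and 2 for the KO interaction. The nuclear total gave 44 and 12 nuclear calls for noDex against KO at days 0 and 4, 30 for Dex against noDex at day 2, and 5 and 8 mitochondrial calls for noDex against KO at days 0 and 4. The median of ratios gave 41 nuclear calls for noDex against KO at day 4, 12 mitochondrial calls for KO day 6 against day 0 and 1 for Dex against noDex at day 6. Without the length trend noDex against KO had 20 and 17 nuclear calls at days 2 and 4 and 7 mitochondrial calls at day 0. With no filter, mitochondrial calls for Dex against noDex were 2 at day 2 and 1 at day 6. Leaving out 1 library gave 22 to 37 and 16 to 20 nuclear calls for noDex against KO at days 2 and 4; mitochondrial calls were 3 to 5 for KO against WT at day 2, 3 to 4 for noDex against KO at day 4, 2 to 3, 4 to 6 and 0 to 0 for Dex against noDex at days 2, 4 and 6, and 4 to 10 for the KO interaction. The cause was not tested.

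Directions of single genes turned as follows. Under the median of ratios: Ndufa4 in WT day 6 against day 0 (-0.021); Ndufa2, Ndufa3 and Cox6b1 in noDex day 6 against day 0 (-0.14, -0.023 and -0.10); Cox7c and Ndufa4 in KO against WT at day 2 (-0.024 and -0.016) and Cox4i1 and Ndufb7 at day 4 (-0.001 and -0.02); Uqcrc2 in noDex against KO at day 0 (0.062); Ndufa2 and Cox6c in Dex against noDex at day 2 (0.008 and 0.009); and Atp5a1 in the Dex interaction (0.003). Under the nuclear total: mt-Co1 in KO day 6 against day 0 (0.03), Uqcrc2 in noDex day 6 against day 0 (0.071), Sdhb, Uqcrc1, Cox7a2 and Uqcrfs1 in noDex against KO at day 0 (-0.022, -0.028, -0.0 and -0.009), Ndufs7 and Uqcrc2 there at day 6 (-0.021 and -0.026), and Cox7c and Atp5a1 in Dex against noDex at day 2 (-0.002 and -0.031). With copies added: Cox7a2l in noDex against KO at day 6 (-0.013) and in the Dex interaction (0.02), and Ndufs5 in Dex against noDex at day 6 (-0.046). Without the length trend: Ndufab1 in KO day 6 against day 0 (-0.026) and Atp5g3 in KO against WT at day 0 (-0.001). Without WT day 0 replicate 1: mt-Nd4 in WT day 6 against day 0 (0.006).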
